A study of Mus musculus with 2 samples.

Results

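The genes described here are mouse genes whose symbol on the array platform is Zfp followed by a number. The name stands for zinc finger protein, and the genes were set apart by that name together with a filter on signal. The array listed 333 such genes, leaving out Zfp36, Zfp36l1 and Zfp36l2, which encode RNA decay factors of another protein class. Of the 333, 194 were selected on their measured signal, a geometric mean over both arrays of at least 25.8, which was the median over all 18193 genes on the array. The 194 are thus among 9097 genes kept. RefSeq lists 192 of them as protein coding. The other 2 are Zfp652os, a non-coding RNA gene near Zfp652, and the pseudogene Zfp862-ps.

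RNA came from RAW264.7, a macrophage-like cell line of the mouse, and was measured on Affymetrix arrays. One group carried the retroviral vector MSCV encoding miR-155, and the group it was set against carried the same vector without the microRNA. Both had undergone selection in 7 µg/ml puromycin and limiting-dilution cloning, and RNA of 5 clones was pooled into 1 array per group. With 1 array per group there was no replicate check: there is no test and no p-value, and each difference given is one between these 2 arrays. Clone, culture and array differences cannot be told apart from the effect of miR-155 in this design, nor can a change per cell from a change in the mixture of cells.

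Most proteins of this name carry fingers, short loops in which cysteines and histidines hold a zinc ion, often in a row that reads DNA letter by letter. Many also carry a KRAB domain, which recruits the co-repressor Trim28 and with it histone methylation, and which is best known for silencing retroviral elements. Others bind RNA, ribosomes or ubiquitin rather than DNA. A microRNA lowers mRNAs that pair with its seed, and one of the genes, Zfp652, has been reported as a target of miR-155.

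The microRNA that the vector carried is shown first, since its seed decides which mRNAs it can pair with. The hairpin gives a mature strand from each arm, printed below from RefSeq (GRCm38.p6, plus strand) from 5′ to 3′, with the seed, bases 2 to 8, in capitals. The 5p strand, the one usually meant by miR-155, lies at chr16:84714143-84714165, and the 3p strand at chr16:84714182-84714202.
mmu-miR-155-5p: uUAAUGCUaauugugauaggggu
mmu-miR-155-3p: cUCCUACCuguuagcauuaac
The seeds differ, and an mRNA would pair with the 5p seed through the letters AGCAUUA. Transcript sequences of the Zfp genes were not used here, so which of them hold these letters was not examined.

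Every macrophage marker listed (11 of 11, among them Cd68, Csf1r and Itgam) lay at or above the signal floor on both arrays, with signals from 220 to 5095 on the miR-155 array and 147 to 6058 on the empty-vector array. The summed signal of these markers was 29629 on the miR-155 array and 27143 on the empty-vector array. None of 4 B cell, 4 T cell, 4 neutrophil and 5 fibroblast markers was at the floor on both arrays. The median over all 45101 probesets was 14.1 on the miR-155 array and 15.4 on the empty-vector array.

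Zfp652 read lower in miR-155 cells, and of the 194 genes it lay farthest from the genes of like signal. Zfp652 encodes a DNA-binding repressor, whose human counterpart ZNF652 works with co-repressors of the ETO family. Its brightest probeset had a signal of 96.5 on the miR-155 array, against 215 on the empty-vector array. This is a 2.23-fold lower signal, a log2 ratio (miR-155 over empty vector) of −1.15. The spread of ratios at like signal, given from here on as the local SD, is the scaled median absolute deviation of log2 ratios over the 500 genes closest in mean signal, and was 0.31 for Zfp652. Its ratio lay 3.55 local SDs below the local median. It was the third lowest of the 194 Zfp ratios, and 1.04% of all genes kept had a ratio at or below it. Being a reported target, Zfp652 had been singled out by name, so this value describes the gene and tests nothing about the others.

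Zfp652 had 2 further probesets, both below the floor. They read 3.73 and 0.815 on the miR-155 array, against 10.5 and 0.499 on the empty-vector array, so the brighter of them was also lower and the other was near the bottom of the scale. The nearby non-coding gene Zfp652os, named here after its values were seen, read 36.9 on the miR-155 array and 28.8 on the empty-vector array. Its log2 ratio of 0.36 was within its local SD of 0.58. Thus 1 probeset of usable signal carries the value for Zfp652.

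The ETO co-repressors are the known partners of the human protein. Cbfa2t2 read 122 on the miR-155 array and 80.2 on the empty-vector array (log2 ratio 0.60, local SD 0.36). Cbfa2t3 read 94.2 on the miR-155 array and 65.5 on the empty-vector array (log2 ratio 0.52, local SD 0.37). Both brightest probesets were thus higher in miR-155 cells while Zfp652 was lower. A further probeset of each went the other way, at −0.51 for Cbfa2t2 and −0.25 for Cbfa2t3, and another of Cbfa2t3 had a reading below the floor. The third member, Runx1t1, did not pass the signal filter.

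**Figure D1:**
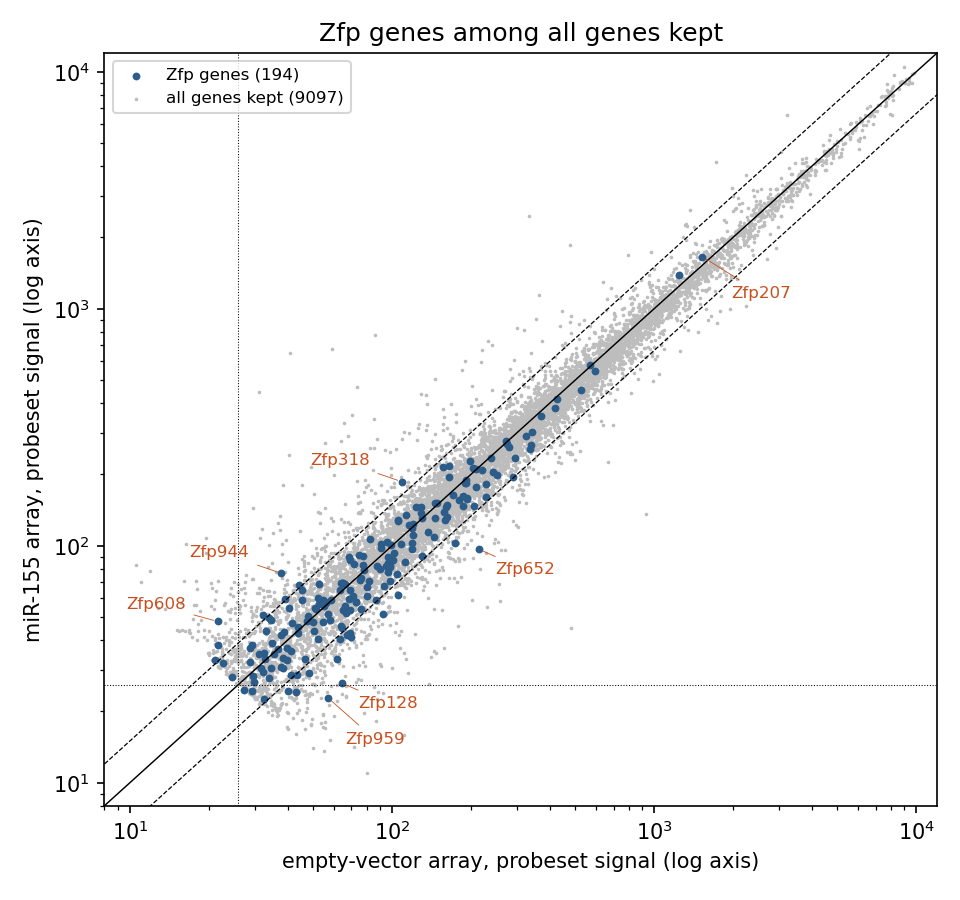
Probeset signal on the miR-155 array (vertical, log axis) against the empty-vector array (horizontal, log axis) for 194 Zfp genes (blue) and all 9097 genes kept (grey). The solid line marks equal signal, the dashed lines a 1.5-fold difference and the dotted lines the signal floor of 25.8. Zfp genes crowd the dim end, and 171 of 194 lie between the dashed lines.

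Most Zfp genes differed little between the arrays. Of 194, 171 (88.1%) were within 1.5-fold, against 88.7% of all genes kept. In miR-155 cells 8 lay 1.5-fold or more above empty-vector cells and 15 as far below, which is 4.12% and 7.73% of them. The same thresholds were passed by 5.32% and 5.99% of all genes kept, so the shares of Zfp genes were near the background. When the probesets of a gene were averaged, 7.89% of Zfp genes and 7.65% of all genes lay 1.5-fold higher, so the higher share was not below the background in every setting. At 2-fold, 2 of 194 were higher and 3 lower, against 175 (1.92%) and 130 (1.43%) of the 9097 genes kept. Among these Zfp genes, Zfp608 (higher) and Zfp959 (lower) each had a reading below the floor.

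The median log2 ratio of the Zfp genes was −0.089, with quartiles of −0.29 and 0.11. The median of all genes kept was −0.048, so the medians differed by −0.041. A ratio below 0 was found for 115 of the 194 (59.3%), against 58.0% of all genes kept. For 64 Zfp genes the signals were within 1.1-fold of each other.

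The Zfp genes passed the filter in a larger share than the array as a whole, 194 of 333 (58.3%) against 9097 of 18193, but those that passed were dimmer. Their median geometric mean signal was 74.1, against 194 for all genes kept. Of the 194, 125 (64.4%) were under a signal of 100, against 29.1% of all genes kept. Only 2 reached 1000, Zfp207 and Zfp622, whereas 11.2% of all genes kept did. Their signals ran from 22.5 to 1658 on the miR-155 array and from 21.1 to 1528 on the empty-vector array. The 139 Zfp genes left out by the filter had a median geometric mean of 9.68. Signals of different probesets are not levels of RNA relative to each other, so these values describe measurability, not abundance.

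Because ratios scatter more among dim genes, the counts were also read within 5 equal bins of mean signal. In the dimmest bin, with signals of 25.8 to 69.1, 19 of 93 Zfp genes (20.4%) were past 1.5-fold in either direction, against 28.0% of all genes there. In the next bin, up to 145, 4 of 55 (7.27%) were, against 13.0%. In the 3 brighter bins 0 of 32, 0 of 12 and 0 of 2 Zfp genes were past 1.5-fold, against 7.97%, 4.56% and 3.02% of all genes. The share of Zfp genes was thus the smaller one in each bin, a difference that was not tested, and all 23 Zfp genes past 1.5-fold lay below a signal of 145.

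The distance from the local median was counted over all signals together, not within bins. At least 2 local SDs above it were 3 Zfp genes (1.55%), against a background of 5.45%. At least 2 local SDs below it were 5 (2.58%), against 4.52%. These backgrounds cover all genes kept, whose median signal was 194 against 74.1 for the Zfp genes. They were not matched for signal, so the smaller shares cannot be read as a second sign of smaller differences. The robust SD of the Zfp ratios was 0.30, while the median of their local SDs was 0.38. Cells, RNA and array are shared by all these genes, and no test of the difference was made.

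**Figure D2:**
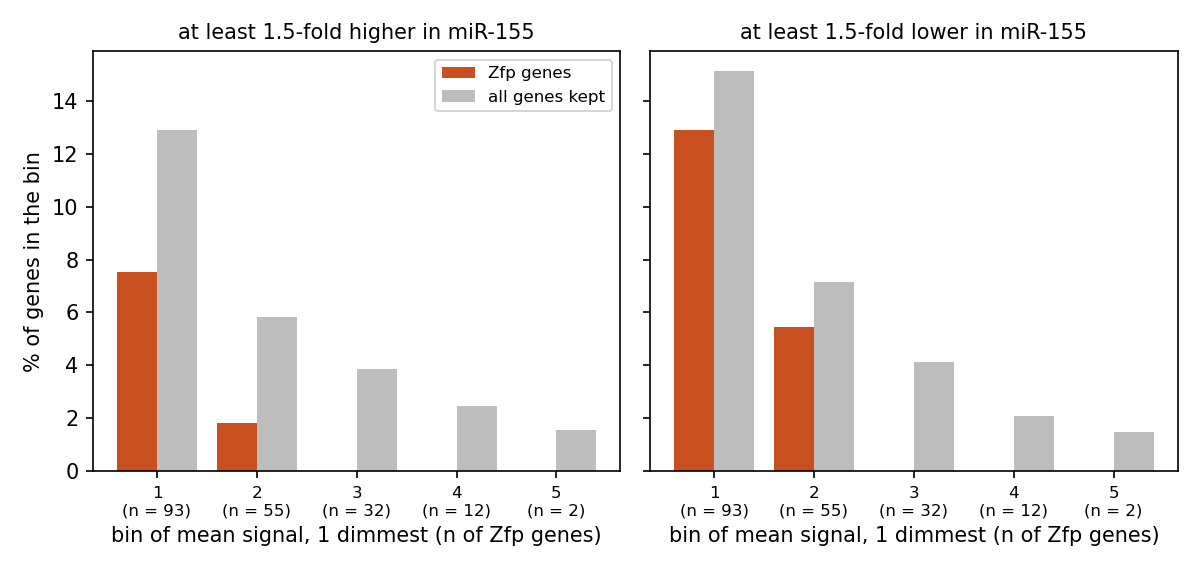
Share of genes at least 1.5-fold higher (left) or lower (right) in miR-155 cells, in 5 equal bins of mean signal from the dimmest (1) to the brightest (5), for Zfp genes (orange) and all genes kept (grey). Below each bin is its number of Zfp genes. The Zfp bar is lower than the grey bar in each bin, and no Zfp gene of bins 3 to 5 passed 1.5-fold.

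Among Zfp genes that read lower, Zfp128 was the lowest with both readings above the floor. It read 26.3 on the miR-155 array, just above the floor, against 64.3 on the empty-vector array (2.44-fold lower, log2 ratio −1.29, local SD 0.57). Its dim further probeset, below the floor on both, read 9.56 on the miR-155 array and 9.87 on the empty-vector array. Zfp959 read 22.7 on the miR-155 array and 57.2 on the empty-vector array. Since the miR-155 reading is below the floor, no ratio is given for it.

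Zfp362 and Zfp386 were brighter. Zfp362 read 103 on the miR-155 array and 173 on the empty-vector array (1.68-fold lower, log2 ratio −0.75, local SD 0.30), a distance of 2.34 local SDs below the local median. Zfp386 read 62.1 on the miR-155 array and 105 on the empty-vector array (log2 ratio −0.76, local SD 0.37). Its further probeset was lower by less, at −0.30. Zfp639, named after its values were seen, read 194 on the miR-155 array and 290 on the empty-vector array, a log2 ratio of −0.58, with a distance of 2.32 local SDs.

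Zfp687, whose human counterpart is mutated in a severe form of Paget disease of bone, read 51.3 on the miR-155 array and 92.3 on the empty-vector array (1.80-fold lower, log2 ratio −0.85, local SD 0.41). Zfp518a read 41.1 on the miR-155 array and 69.7 on the empty-vector array (log2 ratio −0.76, local SD 0.44). Each rested on a single probeset, and each ratio was under 2 local SDs from the local median. Zfp449 (log2 ratio −0.74) and Zfp87 (−0.69) were of the same kind, with local SDs of 0.56 and 0.45. Zfp619 read 24.1 on the miR-155 array and 43.0 on the empty-vector array, and Zfp438 read 24.3 on the miR-155 array and 40.2 on the empty-vector array, so that both lay under the floor in miR-155 cells alone.

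Zfp729a read 33.2 on the miR-155 array and 61.8 on the empty-vector array (log2 ratio −0.90, local SD 0.54). Its further probesets did not follow, at −0.28 and 0.14. The close relative Zfp729b, named after its values were seen, read 68.9 on the miR-155 array and 66.1 on the empty-vector array. Probes of such close copies can bind each other's RNA, so the values of both genes are uncertain.

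The highest Zfp ratio with both readings above the floor was that of Zfp944. It read 76.5 on the miR-155 array and 37.8 on the empty-vector array (2.02-fold higher, log2 ratio 1.02, local SD 0.44). Its further probesets read 33.4 and 7.29 on the miR-155 array, against 28.4 and 9.74 on the empty-vector array, and the brighter one gave a log2 ratio of only 0.23. Zfp608, a relative of Zfp609, read 47.9 on the miR-155 array and 21.6 on the empty-vector array. Its further probeset read 54.1 on the miR-155 array and 9.85 on the empty-vector array, so both of its probesets were low in empty-vector cells and above the floor in miR-155 cells.

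Zfp318 was the gene farthest above its local median, by 2.69 local SDs. In mouse B cells Zfp318 is needed for making IgD beside IgM from one transcript. It read 186 on the miR-155 array and 109 on the empty-vector array (1.71-fold higher, log2 ratio 0.78, local SD 0.31). Its bright further probeset, at 104 on the miR-155 array and 87.5 on the empty-vector array, gave a log2 ratio of 0.25. The 3 dim ones read 13.3, 13.4 and 21.0 on the miR-155 array, against 13.3, 9.78 and 1.90 on the empty-vector array.

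The other higher genes were dim. Zfp503, a developmental repressor known from the mouse nervous system, read 68.5 on the miR-155 array and 44.1 on the empty-vector array (log2 ratio 0.63, local SD 0.45). Zfp141 had a log2 ratio of 0.66, Zfp287 of 0.60, Zfp1 of 0.55, Zfp398 of 0.52 and Zfp938 of 0.49, with local SDs from 0.45 to 0.57. The 6 dim further probesets of Zfp398 went mostly the other way, with 1 of them higher and 5 lower on the miR-155 array. Zfp428 read 38.0 on the miR-155 array and 21.7 on the empty-vector array. Zfp651 read 33.0 on the miR-155 array and 21.1 on the empty-vector array, and Zfp317 read 32.1 on the miR-155 array and 22.7 on the empty-vector array. All 3 lay below the floor in empty-vector cells.

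**Figure D3:**
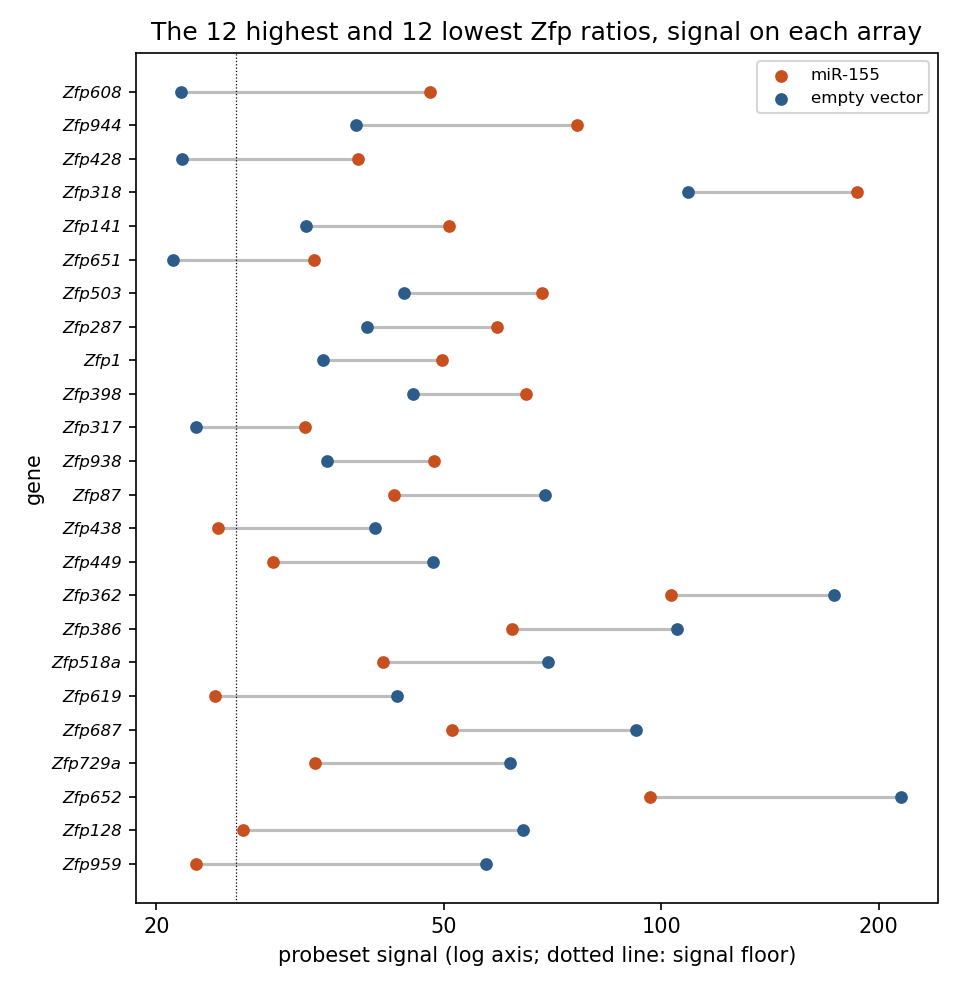
Signal (horizontal, log axis) on the miR-155 array (orange) and the empty-vector array (blue) for the 12 Zfp genes with the highest ratios (top) and the 12 with the lowest (bottom). The dotted line is the signal floor of 25.8; Zfp652, Zfp318 and Zfp362 are brighter on both arrays than the others shown.

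Readings near the floor need care, since 11 of the 194 genes had a reading below it on 1 array, and 6 of the 23 past 1.5-fold were among these. Just inside the filter lay Zfp429, Zfp975 and Zfp651, with geometric means of 25.81, 26.1 and 26.4. Just outside lay Zfp943, Zfp235 and Zfp365, with 25.6, 25.4 and 24.9.

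The 6 brightest Zfp genes were within 1.5-fold of equal signal. Zfp207, whose product binds spindle microtubules and the checkpoint protein Bub3, read 1658 on the miR-155 array and 1528 on the empty-vector array (log2 ratio 0.12, local SD 0.15). Zfp622, whose human counterpart takes part in maturation of the large ribosomal subunit, read 1393 on the miR-155 array and 1243 on the empty-vector array (log2 ratio 0.16, local SD 0.16). That probeset of Zfp622 is of the kind that can bind several transcripts. Its further probesets above the floor gave 0.62 and −0.34.

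Zfp445, a KRAB protein that maintains imprinted methylation, read 580 on the miR-155 array and 568 on the empty-vector array (log2 ratio 0.029). Zfp106, an RNA-binding protein needed by motor neurons in mice, read 545 on the miR-155 array and 593 on the empty-vector array (log2 ratio −0.12). Zfp277, a partner of Polycomb proteins in mice, read 417 on the miR-155 array and 425 on the empty-vector array (log2 ratio −0.028). These 3 differed by less than their local SDs of 0.18 to 0.19. Zfp91, a ubiquitin ligase of the alternative NF-κB pathway and the fifth by signal, read 452 on the miR-155 array and 528 on the empty-vector array (log2 ratio −0.22, local SD 0.19). Its other probeset above the floor gave −0.29.

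The members named next, which act on RNA, ribosomes or ubiquitin-like tags, did not pass 1.5-fold. Zfp598, a ubiquitin ligase that senses collided ribosomes, read 235 on the miR-155 array and 294 on the empty-vector array (log2 ratio −0.33, local SD 0.23). Zfp326, part of a complex that links RNA polymerase to splicing, read 147 on the miR-155 array and 206 on the empty-vector array (log2 ratio −0.48, local SD 0.27). Zfp638, a nuclear RNA-binding protein, had a log2 ratio of −0.19, and the SUMO ligase Zfp451 one of 0.021. Each of these was within 1.5-fold, and the 3 further probesets of Zfp451 above the floor read −0.45 to −0.085.

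Also within 1.5-fold, unlike Zfp652 and Zfp503, were the members named next, most of them transcription factors. Zfp148, which binds GC-rich promoters, was the most fully measured, with 6 probesets above the floor. The brightest read 267 on the miR-155 array and 340 on the empty-vector array (log2 ratio −0.35, local SD 0.21), and the others gave −0.36 to 0.058, with 4 of 5 below 0. Zfp281, a repressor known from mouse stem cells, had a log2 ratio of −0.058. The ratios were −0.32 for Zfp217, −0.21 for Zfp263, −0.17 for Zfp384, −0.20 for Zfp335, −0.31 for Zfp407 and 0.11 for Zfp703. Zfp131 was at −0.081 and Zfp825 at 0.34. Zfp830, not classed as a transcription factor here, was at −0.25.

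Among KRAB proteins, Zfp809 and Zfp568, which have a known genomic target, were also within 1.5-fold. Zfp809, which in mouse stem cells recruits Trim28 to the primer binding site of integrated retroviruses, read 157 on the miR-155 array and 193 on the empty-vector array (log2 ratio −0.30, local SD 0.26). Zfp568, which represses a placental Igf2 transcript in mice, read 76.3 on the miR-155 array and 104 on the empty-vector array (log2 ratio −0.45, local SD 0.36). Zfp266, listed beside them, had a log2 ratio of −0.20. The imprinting factor Zfp57, the stem cell marker Zfp42, the adipocyte regulators Zfp423, Zfp467 and Zfp516 and the progenitor factor Zfp521 did not pass the filter, with signals from 0.408 to 22.8 over both arrays. Zfp143, Zfp260 and Zfp706 were not analysed as single genes here.

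The machinery that KRAB proteins recruit was well measured, and its genes mostly lay within 1.5-fold. All 29 listed partners on the array passed the filter, with a median signal of 347. Their median log2 ratio was −0.13, against −0.048 for all genes kept. A ratio below 0 was found for 23 of 29 (79.3%), against 58.0% of all genes kept. This difference was not tested, and it rests on the brightest probesets. Further probesets of the partners lay on both sides of 0. At least 2 local SDs above the local median was 1 partner (3.45%), against 5.45% of all genes kept. As far below it were 0 (0%), against 4.52%. At least 1.5-fold higher was 1 (3.45%) and as much lower were 0, against 5.32% and 5.99% of all genes kept. Trim28, the scaffold of this pathway, read 1795 on the miR-155 array and 1973 on the empty-vector array (log2 ratio −0.14, local SD 0.14). Its further probeset read 1149 on the miR-155 array and 1470 on the empty-vector array, a log2 ratio of −0.36. Setdb1, its histone methyltransferase, read 243 on the miR-155 array and 268 on the empty-vector array (log2 ratio −0.14), and its further probeset gave −0.20. Chd3, a remodeller of the NuRD complex, was the exception, at 72.5 on the miR-155 array and 29.3, near the floor, on the empty-vector array (log2 ratio 1.31, local SD 0.53).

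The heterochromatin protein gene Cbx5 was the lowest partner, at 312 on the miR-155 array and 432 on the empty-vector array (log2 ratio −0.47, local SD 0.22). Of its further probesets, those with both readings above the floor gave −0.16 each. Its relative Cbx3 read 23.7 on the miR-155 array and 31.7 on the empty-vector array. Morc2a, which compacts chromatin with the HUSH complex, had a log2 ratio of −0.38. At the upper end were the histone chaperone Daxx (0.32) and the NuRD subunit Mta1 (0.25).

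Other zinc finger families were set beside the Zfp genes. Of 32 Zbtb genes kept, whose products join fingers to a BTB domain, 3 lay 1.5-fold or more higher and 6 as much lower in miR-155 cells, around a median log2 ratio of −0.11. These are shares of 9.38% and 18.8%, against 5.32% and 5.99% of all genes kept. The Zbtb genes were also dim, with a median signal of 86.9 against 194, and 4 had a reading below the floor. At least 2 local SDs above the local median were 0 (0%, against 5.45% of all genes kept). As far below it were 2 (6.25%, against 4.52%). The shares were not matched for signal, and no difference was tested. Of 11 Zkscan and Zscan genes (median −0.17) and of 10 Zc3h genes (median −0.12) 0 passed 1.5-fold in either direction. The medians of these families were thus all a little below that of all genes kept, as was that of the Zfp genes.

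Agreement between probesets of one gene was low for the Zfp genes. Of the 194, 89 had 1 probeset only, and 52 had at least 1 further probeset whose mean signal passed the floor, 80 in all. The sign was the same as that of the brightest probeset in 43 of 80 (53.8%), against 64.0% of 6576 further probesets of all genes kept. Pearson's r over probesets was 0.16 for Zfp genes and 0.49 for all genes kept, as a description, since probesets of a gene share RNA and array. The sets were not matched for signal, with a median of 74.1 for Zfp genes and 194 for all genes kept. Whether other genes of like signal agree better was not tested. Only 4 genes past 1.5-fold had such a further probeset, Zfp318, Zfp944, Zfp386 and Zfp729a. Taking the median over a gene's further probesets, the direction was shared in 4 of 4 and 1.5-fold was passed in 0. For Zfp729a that median hides a split, since its further probesets gave −0.28 and 0.14. Over all genes kept the direction was shared in 241 of 279 such genes and 1.5-fold was passed in 126. The brightest probeset was of a kind that may bind several transcripts for 10 (_x) and 6 (_s) Zfp genes.

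**Figure D4:**
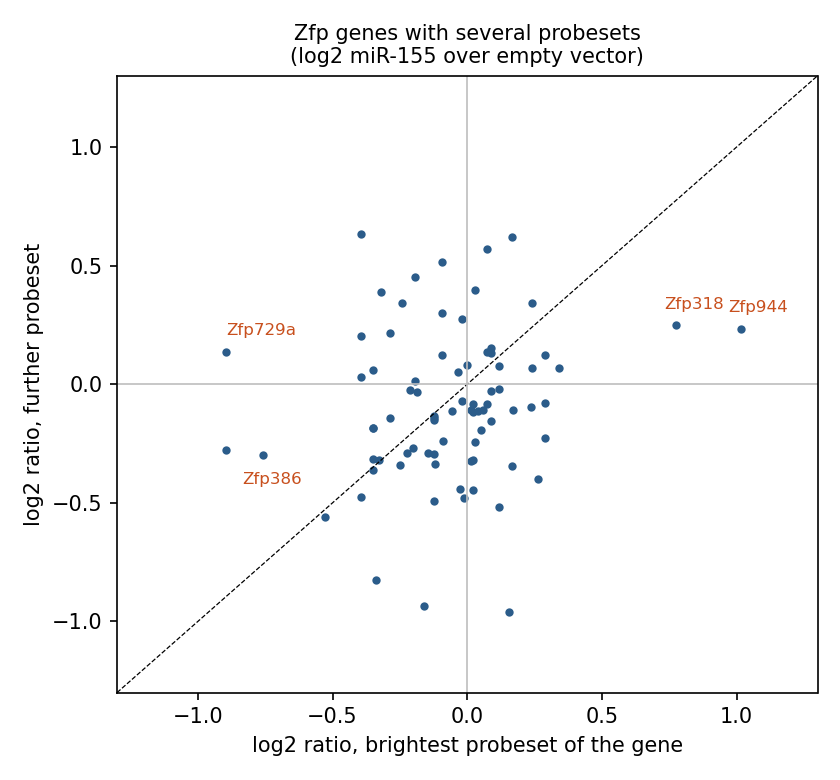
Log2 ratio (miR-155 over empty vector) of 80 further probesets with a mean signal above the floor (vertical) against that of the brightest probeset of the same gene (horizontal), for 52 Zfp genes. Points on the dashed line would give equal ratios. The points scatter around 0, and those of Zfp318 and Zfp944 lie well below the line.

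Zfp genes often sit side by side in the genome, a result of repeated gene duplication. In the RefSeq order of protein-coding genes, with at most 1 other gene between neighbours, 108 of the 194 belonged to runs of Zfp genes. Of 41 pairs of adjacent members both measured, 24 (58.5%) had ratios of the same sign, and r was 0.20, given as a description. Since 115 of the 194 ratios were below 0, members that are not neighbours also often share a sign. No comparison with such pairs was made. The run from Zfp84 to Zfp146 held 15 Zfp genes, of which 8 passed the filter, around a median log2 ratio of −0.29. Of these 8, 7 had a ratio below 0, against 59.3% of the 194 and 58.0% of all genes kept. Zfp82 was the lowest at −0.61. Of 18 in the run from Zfp677 to Zfp946, 11 passed, with a median of −0.20 and with Zfp944 among them. Of 23 in the run from Zfp712 to Zfp273, 10 passed, 5 of them above and 5 below 0, with Zfp729a the lowest. Of 8 in the run from Zfp786 to Zfp467, 6 passed, with a median of −0.16 and a range of −0.47 to 0.52. In none of the 4 runs did all genes that passed share one direction.

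Promoters, here the 250 bases before and 50 after a RefSeq start, were found for 162 of the 194 genes. They held a median of 17 CG steps at the start richest in them, against 23 for other genes kept. The letters ACTACAATT, a core of the site known for Zfp143, occurred on either strand in 6 of the 162 (3.70%), against 0.994% of the 7342 other genes kept. The 6 were Zfp1, Zfp111, Zfp128, Zfp180, Zfp58 and Zfp692, with ratios on both sides of 0. The letters GGAAGT, a core of ETS factor sites, occurred in 46.9% and 34.0% of Zfp and other genes, and TATAAA in 8.64% and 8.19%. The letters GGGGCGGG, a core of GC boxes, went the other way, with 28.4% of Zfp genes and 36.4% of other genes kept. None of these differences was tested, and the sets also differ in CG steps. Zfp genes that arose by duplication may not be independent of each other. A match is no evidence of binding, and among the lower and the higher Zfp genes the median number of CG steps was 17 and 19.

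The promoters of the 3 genes past 2-fold with both readings above the floor are shown from 5′ to 3′, with CG steps in capitals (RefSeq, GRCm38.p6), to let their composition be compared. They lie at chr7:12880928-12881227 on the plus strand for Zfp128, chr11:95748817-95749116 on the plus strand for Zfp652 and chr17:22361351-22361650 on the minus strand for Zfp944.
Zfp128: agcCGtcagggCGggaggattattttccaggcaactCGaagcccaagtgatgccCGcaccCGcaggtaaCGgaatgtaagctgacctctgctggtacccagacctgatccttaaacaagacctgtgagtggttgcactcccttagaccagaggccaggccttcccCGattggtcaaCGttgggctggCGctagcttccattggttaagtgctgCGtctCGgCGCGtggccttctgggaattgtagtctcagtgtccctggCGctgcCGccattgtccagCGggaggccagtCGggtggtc
Zfp652: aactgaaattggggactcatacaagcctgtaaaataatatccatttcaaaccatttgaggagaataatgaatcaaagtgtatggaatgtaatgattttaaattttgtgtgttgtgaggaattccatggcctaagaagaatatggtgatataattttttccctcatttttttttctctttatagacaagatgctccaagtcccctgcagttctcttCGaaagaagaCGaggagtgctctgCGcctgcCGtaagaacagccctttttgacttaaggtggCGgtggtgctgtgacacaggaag
Zfp944: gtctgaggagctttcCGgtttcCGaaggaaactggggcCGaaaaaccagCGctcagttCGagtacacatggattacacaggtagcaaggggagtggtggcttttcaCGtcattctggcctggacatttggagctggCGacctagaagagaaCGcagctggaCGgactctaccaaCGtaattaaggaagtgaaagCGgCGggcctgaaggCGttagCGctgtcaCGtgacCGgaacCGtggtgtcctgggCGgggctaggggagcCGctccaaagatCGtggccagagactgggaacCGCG
Zfp128 has 17 CG steps in this window, Zfp652 has 5 and Zfp944 has 22. Which starts these cells use was not measured.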

How the data were processed

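The deposited table holds 1 linear probeset intensity per array; per the labels, biotin-labelled material was processed by standard Affymetrix procedures. The software, background correction, scaling and genome build of the array were not given in the sources used here. Probesets were named through the platform annotation, and each gene was represented by the single-symbol probeset with the highest mean log2 signal. The upper 50% of genes by that mean were kept. Log2 ratios were taken on the deposited intensities without offset. A ratio is printed only where both readings reach the floor, except in counts, medians and probeset comparisons.

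The planned named genes were Zfp652, the 12 highest and 12 lowest ratios and the 6 brightest. Also planned were the 3 on each side of the floor and a list of known roles. Other Zfp genes are marked as chosen later, or were named only through a run of neighbours, a promoter motif or a shared probeset. For partners the planned genes were Trim28, Setdb1 and the 3 highest and 3 lowest. Members and lists were chosen with earlier results of these data known. Only the 1.5-fold counts and the local SD were tested on simulated ratios. The changes put in were larger than any among the Zfp genes kept, and the other steps were not simulated. Python 3.11.15, pandas 2.3.3 and numpy 2.4.6 were used.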

Additional observations from a re-analysis of the deposited data

How the results depend on the processing

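The log2 ratio of Zfp652 was between −1.15 and −0.85 in the settings where it passed the filter. With the upper 25% of signal or the mean of all probesets it did not, and no value is given. The difference between the medians of Zfp genes and of all genes kept was −0.046 to −0.016 throughout. Counts of Zfp genes depended on the treatment of dim signals. In the order 1.5-fold higher, 1.5-fold lower, 2-fold higher and 2-fold lower, they were 8, 15, 2 and 3 as reported, 0, 0, 0 and 0 of 25 genes in the upper 25% of signal, 49, 56, 29 and 34 of 333 with no filter, 0, 1, 0 and 0 after adding 50 to every signal, 15, 19, 5 and 6 when probesets of a gene were averaged, and 15, 21, 4 and 6 without probesets ending in _x, _s or _a. As shares, 1.5-fold higher were 4.12% of Zfp genes against 5.32% of all genes as reported. They were 7.89% against 7.65% when probesets were averaged and 7.35% against 6.18% without probesets ending in _x, _s or _a. With no filter they were 14.7% against 17.1%, with 50 added 0% against 2.15%, and in the upper 25% of signal 0% against 2.42%. The shares 1.5-fold lower were 7.73% against 5.99% as reported, 10.0% against 10.05% averaged and 10.3% against 7.64% without probesets ending in _x, _s or _a. With no filter they were 16.8% against 21.2%, with 50 added 0.515% against 2.07%, and in the upper 25% of signal 0% against 2.09%. Which share was the larger thus changed with the setting, and the differences were not tested. Once readings under the floor were set to the floor, 1 gene was 2-fold higher. Without genes that had such a reading, an alternative added after seeing the data, 5 were 1.5-fold and 1 was 2-fold higher. The 5 are 2.73% of Zfp genes, against 4.39% of all genes in that setting. Scaling the median of all probesets to 0 shifted ratios by 0.078 and left 10 genes 1.5-fold higher and 13 lower. These are 5.15% and 6.70% of Zfp genes, against 6.78% and 4.75% of all genes. The split into KRAB and other Zfp genes was not run, since protein sequences were not used here. No paired analysis was possible because each group had 1 array. The cause of these shifts was not tested. The number of arrays limits every statement.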

Other observations

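Probesets that the annotation assigns to several genes were left out above. Of 27 that include a Zfp symbol, 11 had both readings above the floor. The one shared by Zfp960 and Zfp97 read 32.8 on the miR-155 array and 61.6 on the empty-vector array, a 1.88-fold lower signal. The 3 shared by Zfp706 and Gm10193 read 1595, 767 and 514 on the miR-155 array, against 1668, 817 and 599 on the empty-vector array, with log2 ratios from −0.22 to −0.064.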
